A study of Mus musculus with 10 samples.

Results

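The comparison is of total RNA from knockout (KO) against wild-type (WT) mouse skeletal muscle. It holds the 3 KO and the 3 WT total RNA libraries, 6 of the 10 samples of the series, chosen by their labels, and covers all 43629 genes counted in each. The other 4 libraries are RNA pulled down with an antibody to the protein IMP2, and they enter below only as a second look at the leading genes. All mice were male C57BL/6, 6 weeks old, with 2 weeks of high-fat diet (HFD) in both genotypes, so there is no group on normal chow. The KO samples carry the label IMP2 null, while the text on the series' design speaks of mice that lack IMP2 in muscle. The sources used here do not give the promoter or Cre that drives the deletion, the muscle sampled or the deleted exons. The labels do not state whether each library is a different animal. The p-values therefore reflect how these libraries scatter, and some of that scatter may be technical.

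IMP2, encoded by Igf2bp2, is a protein that binds mRNAs in the cytoplasm and affects where, how long and how well they are translated. Its best known partner is the mRNA of the growth factor IGF2, and mRNAs of mitochondrial proteins are also among its targets. Muscle is a tissue of long fused fibres with blood vessels, nerves, connective tissue and stem cells among them. In bulk RNA, fewer cells of a type and less RNA per cell cannot be told apart. The study asked what IMP2 does in adult muscle.

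Gene counts per library came to 12299030 to 14809788 in WT and 9691580 to 10739792 in KO. Fast fibre genes summed to 118500 to 286400 CPM per library (counts scaled to the library's TMM-adjusted total), so muscle RNA was abundant in each library. Igf2bp2 itself (ENSMUSG00000033581) was counted 35, 37 and 48 times in WT muscle and 21, 19 and 21 times in KO muscle, and scaled for depth its log2 difference was -0.36 ± 0.28 (SE), so the gene was still counted in KO muscle. Libraries did not sort by genotype: the closest pair of all was WT library 1 and KO library 1, with a root mean square log2 distance of 0.39, against 0.45 to 0.60 between WT libraries and 0.43 to 0.49 between KO libraries. WT library 3 lay at 48.8 on the first principal component and the other libraries between -31.5 and 4.70. That library also had the lowest share of reads aligned to several places (26.1%, against 33.5% to 36.9%) and the lowest fast fibre sum. Xist, a non-coding RNA that silences an X chromosome in females, was read 46 times in KO library 1 and no more than 3 times in any other, although every mouse is labelled male. KO library 1 and WT library 2 hold transcripts of pancreatic islets and of brown fat, and results that rest on them are given with and without them.

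**Figure D1:**
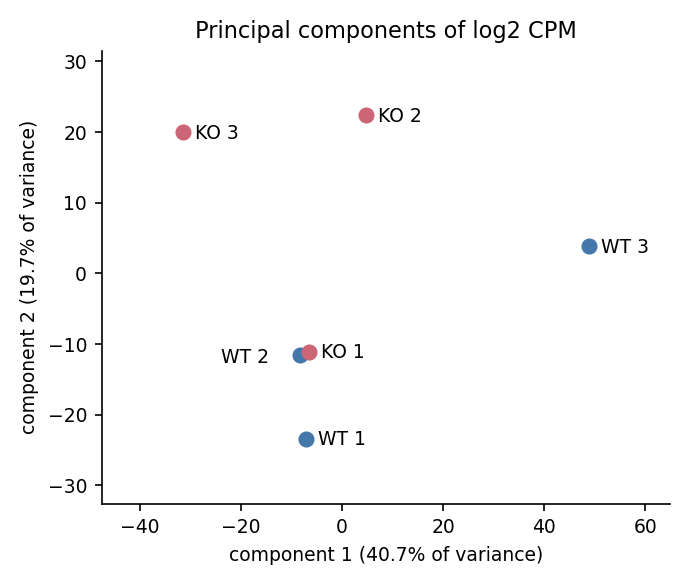
Principal components of log2 CPM of the 6 libraries. Each point is 1 library (blue WT, red KO). WT 3 lies apart on component 1, KO 1 lies beside WT 2, and the genotypes do not form separate groups on component 1.

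Of 13169 genes with enough counts to test, 0 (0%) had an adjusted p under 0.05 in edgeR's quasi-likelihood test. At an unadjusted p under 0.05 there were 569 genes (4.32%), 267 higher in KO (2.03%) and 302 lower (2.29%). If no gene differed and p-values were evenly spread, about 658 genes would be expected there, more than were found. DESeq2 called 3 genes, Cish, Prg4 and Scg3, and limma-voom 0. All 3 KO libraries lay outside the range of the WT libraries for 1266 genes (9.61%), 627 of them higher (4.76%) and 639 lower (4.85%). The lowest adjusted p was 0.294, for Cish, and the next lowest was 0.897. For 10092 genes (76.6%) the 95% interval of the difference lay inside a 2-fold change either way. In simulated counts, 46% of genes with a 2-fold change and 94% of those with a 4-fold change were recovered. These rates describe the simulated counts only. Whether they carry over to real libraries, of which some stand apart or hold transcripts of fat or islets, was not tested.

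The genes that stood highest in KO by p, among those whose groups did not overlap, were led by Cish, an inhibitor that cells make in response to cytokines and growth hormone. Cish (ENSMUSG00000032578, chromosome 9, 107296026 to 107302784, GRCm38) stood at 6.84, 7.75 and 10.6 CPM in WT and at 27.6, 26.04 and 42.0 CPM in KO. Each KO library was above each WT library, and the log2 difference was 1.92 ± 0.24 (SE). It was 1.69 to 2.13 with any 1 library left out. Dysf, whose protein dysferlin reseals the torn fibre membrane, stood at 115, 138 and 111 CPM in WT and 211, 195 and 185 CPM in KO. Its difference was smaller, 0.70 ± 0.15, with little spread inside each group. Dchs1, a large protocadherin, stood at 12.2, 17.8 and 12.8 CPM in WT and 21.1, 32.3 and 28.9 CPM in KO. Foxo6, a forkhead transcription factor, stood at 13.0, 13.3 and 15.01 CPM in WT and 21.5, 22.1 and 19.5 CPM in KO. The 2 genes differed by 0.95 ± 0.22 and 0.61 ± 0.15 on the log2 scale.

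Others of the leading 15 are described one by one. Actc1, the actin of heart and fetal muscle, stood at 1718, 2642 and 1581 CPM in WT and 2919, 4745 and 4120 CPM in KO, and its log2 difference was 0.99 ± 0.27. Myl4, a light chain of embryonic and atrial myosin, stood at 4.25, 10.2 and 4.74 CPM in WT and 16.3, 13.8 and 18.5 CPM in KO. The difference of 1.34 ± 0.32 became 1.86 without WT library 2, the highest of the WT libraries. Dlk1, an imprinted transmembrane protein that holds back differentiation, stood at 1.13, 1.30 and 2.04 CPM in WT and 2.22, 5.82 and 5.07 CPM in KO, where KO library 1 sat close to the WT range. Prph, an intermediate filament of peripheral nerve, differed by 1.71 ± 0.43, Kif1a, a motor of axonal transport, by 1.12 ± 0.31, and Scg3, a granule protein, by 2.68 ± 0.61. Scg3 is on the islet marker list, and without KO library 1 its difference was 1.81. Col26a1, a collagen, and Tbc1d25, a regulator of autophagosomes, differed by 1.09 ± 0.27 and 0.78 ± 0.20. Capn11 and Chga are taken up with the libraries that stand apart.

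**Figure D2:**
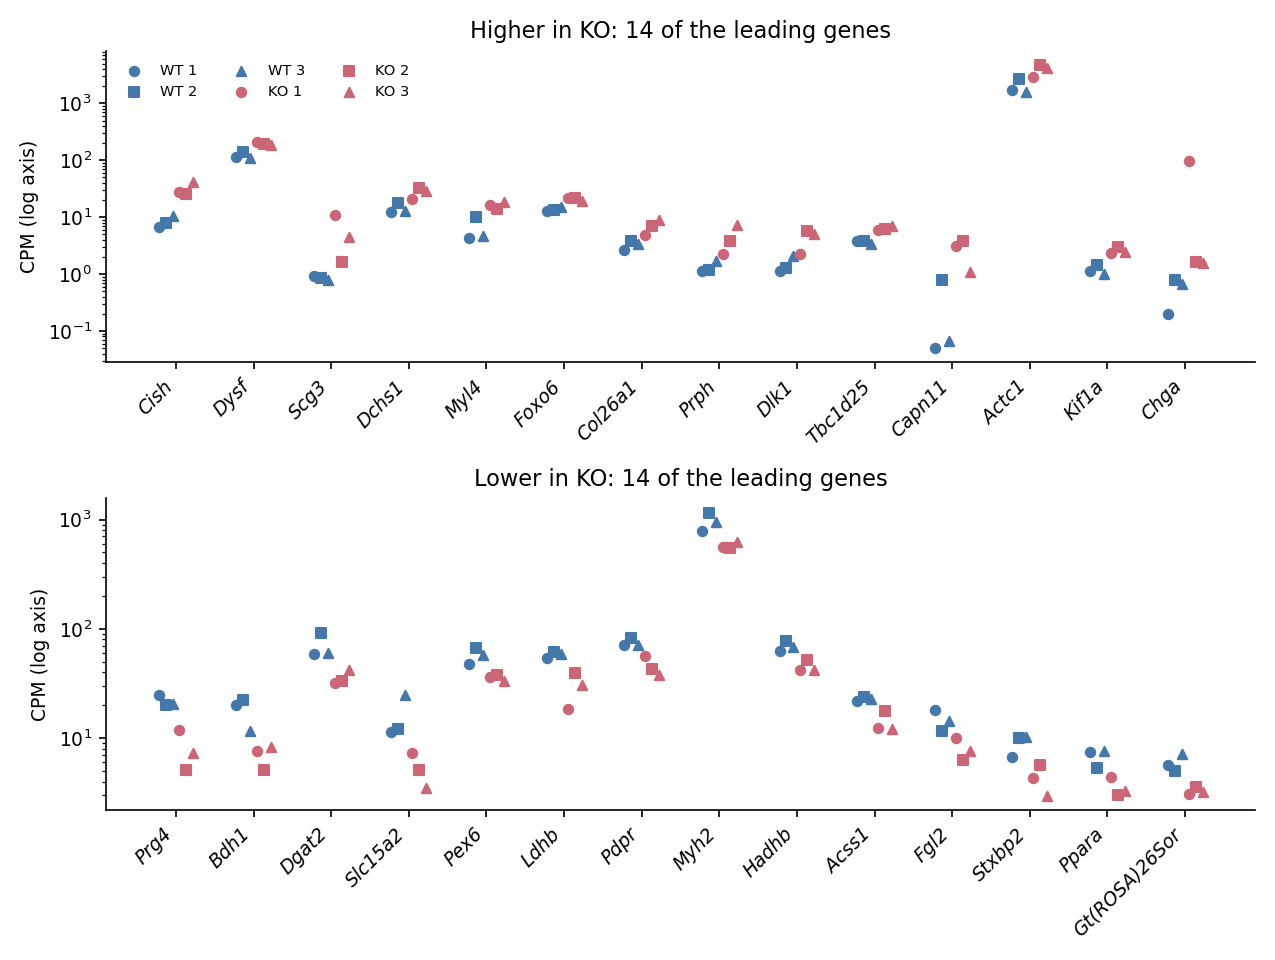
CPM of 14 of the 15 leading genes in each direction, in each library on a log axis (blue WT, red KO; circle, square and triangle for libraries 1, 2 and 3; values under 0.05 CPM are drawn at 0.05). Groups separate for each gene because that was a condition of the choice. The islet gene Chga reaches 97.8 CPM in KO library 1 and at most 1.66 CPM elsewhere, and Cish lies at 6.84 to 10.6 CPM in WT and 26.04 to 42.0 CPM in KO.

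The start of Cish is known to hold paired sites for STAT5, the factor through which growth hormone and cytokines act, so the leading gene's start was searched for the STAT5-type motif TTCNNNGAA. The letters on the plus strand from RefSeq (GRCm38.p6, chr9:107296654-107296683), with the 2 matches in capitals, were:
Cish: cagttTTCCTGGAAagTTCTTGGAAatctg
The first match opens at the RefSeq start of the gene (base 1). Windows from 250 bases before to 50 after a start held this motif (which reads the same on both strands) in 2582 of 27025 promoters, or 9.55%. It was found in 1 of the 11 leading higher genes with a promoter entry, Cish, and in 2 of the 11 leading lower ones, Fgl2 and Hadhb. The PPAR-type repeat (AGGTCA, any base, AGGTCA), searched on both strands, was in 13 promoters (0.0481%) and in none of the leading genes. Of 13 tested genes known to answer to growth hormone and STAT5, Cish included, 9 were on the higher side and 4 on the lower. Only 1, the leading gene Cish itself, had an unadjusted p under 0.05, where 2.03% of all genes lay higher. The median log2 difference of the 13 was 0.15, against -0.01 over all genes. It was -0.07 when scaled by library size alone, which moves the median of all genes to -0.23. Socs3 and Bcl6 differed by 0.51 ± 0.26 and 0.40 ± 0.18.

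Genes lower in KO by the same choice were led by Prg4 and by several of fat and ketone use. Prg4, the lubricant of joints and tendon sheaths (ENSMUSG00000006014), stood at 24.7, 20.1 and 20.6 CPM in WT and 11.9, 5.17 and 7.39 CPM in KO, a log2 difference of -1.43 ± 0.28 (SE). The 11 tested tendon and joint markers, Prg4 included, had no common direction, with 6 on the higher side and 5 on the lower, and their median of 0.06 ranged from -0.29 (without WT library 2) to 0.44 (without WT library 1) with 1 library left out. Bdh1, which starts the use of ketone bodies in mitochondria, stood at 20.3, 22.3 and 11.6 CPM in WT and 7.56, 5.08 and 8.38 CPM in KO (-1.37 ± 0.29). Ppara, the nuclear receptor that senses fatty acids and drives their oxidation, stood at 7.44, 5.29 and 7.64 CPM in WT and 4.45, 3.05 and 3.31 CPM in KO. That is a log2 difference of -0.92 ± 0.25, and it was -0.81 to -1.09 with any 1 library left out. Ldhb, the lactate dehydrogenase subunit of oxidative fibres, stood at 53.9, 61.2 and 59.2 CPM in WT and 18.7, 39.1 and 30.5 CPM in KO (-0.98 ± 0.24), with KO library 1 the lowest.

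Further enzymes of mitochondria and lipid handling were in this set of 15. Dgat2, which completes triglyceride synthesis, stood at 58.9, 91.5 and 59.7 CPM in WT and 32.1, 33.1 and 41.9 CPM in KO (-0.97 ± 0.21). Pdpr, a regulator of the pyruvate dehydrogenase phosphatase, differed by -0.71 ± 0.18, Pex6, an ATPase of peroxisome assembly, by -0.69 ± 0.16, Acss1, which activates acetate, by -0.69 ± 0.18, and Hadhb, of the long-chain fatty acid oxidation complex, by -0.61 ± 0.16. Slc15a2, a carrier of small peptides, stood at 11.49, 12.2 and 25.1 CPM in WT and 7.34, 5.08 and 3.53 CPM in KO (-1.61 ± 0.36), and without WT library 3 the difference was -1.15. Fgl2, a fibrinogen-like protein of immune cells, and Stxbp2, a syntaxin partner in exocytosis, differed by -0.88 ± 0.24 and -1.04 ± 0.28. Myh2, the myosin of type IIA fibres, and the non-coding Gt(ROSA)26Sor are described further on. Reads of Prg4, Bdh1, Slc15a2, Pdpr, Acss1, Fgl2 and Gt(ROSA)26Sor, and of Cish, Dysf, Scg3, Dchs1, Myl4 and Actc1, may include those of a gene annotated on the opposite strand, since strand use was not given.

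Transcripts found mainly in 1 library were counted next, as genes with at least 20 counts and a CPM at least 4 times that of every other library. There were 69 such genes in WT library 2 and 31 in KO library 1, against 5 in WT library 1, 23 in WT library 3, 0 in KO library 2 and 2 in KO library 3. In WT library 2 they held 0.618% of all counts and were led by fat genes. Scd1, which desaturates fatty acids, had 28221 counts there and 377 to 1175 elsewhere, and Ucp1, the heat-making carrier of brown fat, had 2919 counts there and 2, 53, 1, 1 and 2 in WT libraries 1 and 3 and KO libraries 1, 2 and 3. WT library 3 was thus above the remaining 4 for Ucp1, and also for Cidea, with 125 counts against 16 to 57. In KO library 1 the library-specific genes held 0.223% of counts and were led by Ins2 and Ins1 (insulin), Iapp (amylin), Chga (a granule protein) and Gcg (glucagon), with Ins2 at 11628 counts there and 2 to 10 elsewhere. The islet list summed to 2344 CPM there, while markers of the exocrine pancreas reached 7.67 CPM, and no more than 0.739 CPM elsewhere.

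**Figure D3:**
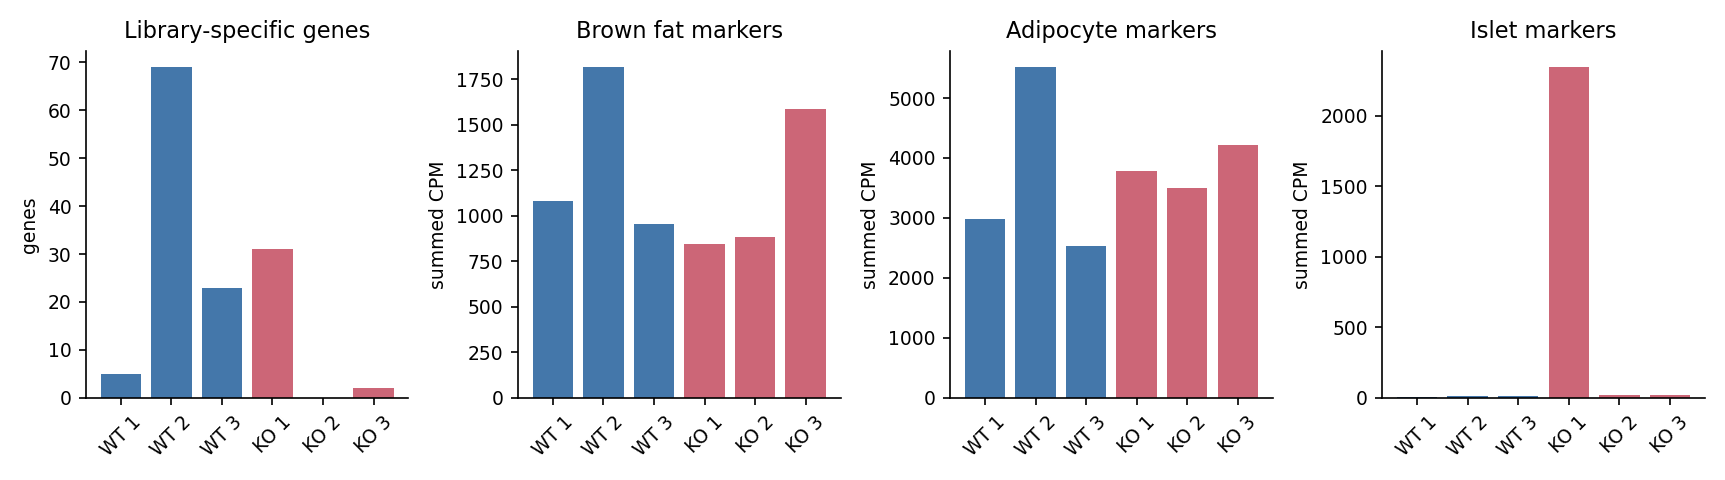
Number of library-specific genes and summed CPM of brown fat, adipocyte and islet markers in each library (blue WT, red KO; axes start at 0). WT 2 has the most such genes and the highest fat sums, and islet markers reach 2344 CPM in KO 1 against at most 16.8 CPM elsewhere. The brown fat list holds genes that muscle also expresses, such as Cox8b and Fabp3, so its sum is well above 0 in every library.

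A difference was said to hold where its sign stayed, its unadjusted p stayed under 0.05 and its size stayed within 1.5 times in each of the fits without WT library 2, without KO library 1 and without both. Of the 569 genes, 198 held (1.5% of all tested genes), 111 higher and 87 lower in KO. Their absolute log2 differences ranged from 0.41 to 3.16 with a median of 0.78. An unadjusted p under 0.05 was lost by 155 genes without WT library 2, by 214 without KO library 1 and by 240 without both, and 6 genes changed sign without both. Among the 15 leading higher genes, 13 held, all but Capn11 and Chga. Among the 15 lower, 12 held, all but Myh2, Hadhb and Acss1, whose differences without both were -0.56, -0.47 and -0.57. The leading genes were chosen by their p with all 6 libraries, which favours a higher share than the 34.8% of the 569 that held. Of the 198, 77 also kept an unadjusted p under 0.05 with any 1 of the 6 libraries left out.

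Many of the largest differences rested on WT library 2. Of 166 genes with at least 1 CPM and a log2 difference of 1 or more either way, 121 were lower in KO and 45 higher. Without WT library 2, 50 of the 121 shrank by more than a factor of 2 on the log2 scale, and without KO library 1 this was so for 3 of the 45. The fat genes gave the clearest cases. Scd1 stood at 29.9, 2044 and 77.4 CPM in WT and 41.9, 37.2 and 50.9 CPM in KO, so its log2 difference of -4.05 ± 1.32 was -0.29 without WT library 2. Likewise Fasn, the fatty acid synthase, was at -3.39 and then -0.37, and Cdo1, which oxidises cysteine and is abundant in fat, at -3.46 and then -0.12. Cidea, a lipid droplet protein of brown fat, was at -5.57 with all libraries and still at -1.56 without WT library 2, WT library 3 having 8.23 CPM against 1.78 to 2.21 CPM in KO. Dgat2, also a gene of fat, kept -0.72. From KO library 1 came Chga (5.91, and 1.54 without it), Fosb, an immediate early factor (2.35 and 0.47), and Myh3, embryonic myosin (1.40 and 0.30).

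**Figure D4:**
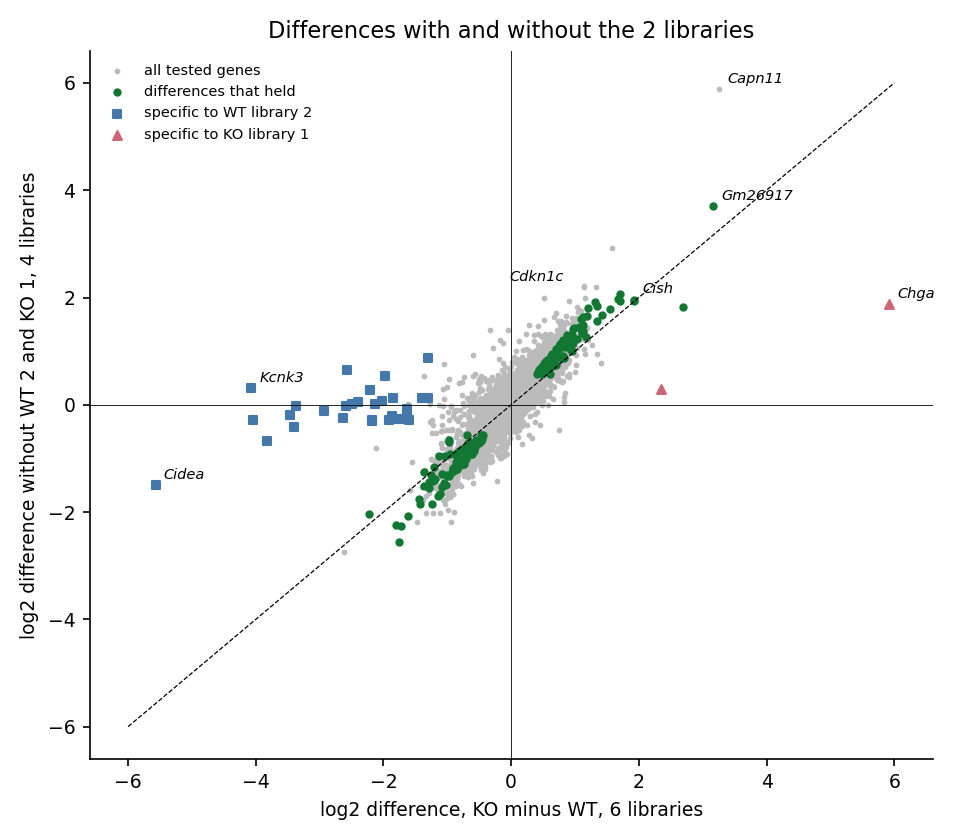
Log2 differences (KO minus WT) of tested genes with all 6 libraries (x) and without WT 2 and KO 1 (y). The dashed line marks equal values. Genes specific to WT 2 (blue squares) have a median of -2.16 on the x axis and -0.10 on the y axis, with Cidea at -1.50 on the latter. Differences that held are green and follow the line by their definition, and Cdkn1c lies above it.

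Leaving out both libraries also brought forward genes that the 6 libraries showed less clearly. With 4 libraries and 13333 genes tested, 0 (0%) passed edgeR's adjusted test, 745 (5.59%) had an unadjusted p under 0.05 and 49% had a positive difference. Groups did not overlap for 33.5% of the 13333. Of the 745 genes, 329 were among the 569, which is 57.8% of the 6-library genes and 44.2% of the 4-library genes. Cdkn1c, an imprinted brake on the cell cycle (chromosome 7, 143458339 to 143461050), stood at 25.5, 81.5 and 21.3 CPM in WT and 65.1, 112 and 106 CPM in KO. WT library 2 was above KO library 1, and the log2 difference was 1.15 ± 0.47 (SE) with all libraries and 2.22 without both, the lowest edgeR adjusted p of that fit at 0.0927. Igf2, the imprinted growth factor whose mRNA IMP2 binds (chromosome 7, 142650766 to 142666816), stood at 21.4, 83.1 and 27.3 CPM in WT and 69.2, 138 and 83.3 CPM in KO. Here too WT library 2 lay within the KO range, and the difference went from 1.14 ± 0.48 to 2.19 (edgeR adjusted p of 0.33). Tceal7 and Map3k7cl, at 58.1 and 54.2 CPM in WT library 2 against 17.4 to 26.9 CPM in the other WT libraries, had the same pattern, with differences of 0.67 and 0.75 that became 1.63 and 1.38.

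Further genes that moved without both libraries were the following. Mbp, a protein of the myelin sheath, stood at 11.2, 18.5 and 16.3 CPM in WT and 9.23, 33.7 and 28.8 CPM in KO, and its difference went from 0.65 ± 0.40 to 1.19. KO libraries 2 and 3 were also high for Prx and Pmp22, and the median of the 10 Schwann cell genes went from 0.40 to 0.96. Capn11, a calpain, was counted 0, 11 and 1 times in WT and 28, 42 and 10 times in KO, and its fitted difference of 3.25 ± 0.87, or 5.89 without both, rests on these few counts. It was 5.98 without WT library 2 and 3.15 without KO library 1. On the lower side, Nmrk2, a muscle kinase for making NAD, went from -0.67 to -1.04, Xdh, the enzyme that makes uric acid, from -0.84 to -1.31, and Pfkfb3, an activator of glycolysis, from -0.70 to -1.27. In all, 8 of the 10 leading higher genes of the 4 libraries were over 1.5 times larger in size than with 6, and so were 6 of the 10 lower ones. These genes were chosen by their p in the 4-library fit, a choice that itself favours larger differences there.

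Outside the rule for naming genes, the 77 most stable differences were read by name, so the following, apart from Myod1, were chosen after their values were seen. Lower in KO were the chemokine receptor Ccr2 (-0.89 ± 0.25, SE), the integrin Itgam (-0.85 ± 0.25), the checkpoint ligand Cd274 (-0.81 ± 0.23), the adaptor Lat2 (-0.87 ± 0.25) and the exchange factor Dock2 (-0.79 ± 0.24). For Lat2 the raw reads were 52, 48 and 51 in WT muscle, against 19, 18 and 17 in KO muscle. Macrophage markers beside them were on the lower side for 10 of 11 (median -0.18), but none had an unadjusted p under 0.05, and their median was 0.16 without WT library 1. They summed to 196 to 449 CPM in WT and 213 to 313 CPM in KO, and their part in these differences was not tested. The 2 tested genes of the lymphocyte list, the immunoglobulin chains Ighm and Igkc, stood higher in KO (0.70 ± 0.20 and 1.34 ± 0.55), both at an unadjusted p under 0.05, where 2.03% of all genes lay higher. Neither of them held, so neither was among the 77. Igkc had 19, 3 and 9 reads in WT and 16, 13 and 22 in KO. Its difference was 0.94 without WT library 2 and KO library 1. Higher in KO were the myogenic factor Myod1 (0.64 ± 0.18), the growth factor Hbegf (0.65 ± 0.18), the basement membrane protein Nid2 (0.87 ± 0.26) and Angptl2, a secreted angiopoietin-like protein (0.50 ± 0.16). Tbc1d4, which gates insulin-driven glucose uptake, was lower, from 265, 274 and 416 reads in WT against 109, 164 and 87 in KO (-0.81 ± 0.23).

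Gene lists chosen for muscle and its other cell types were described by their counts and medians, beside a median of -0.01 and 48% of genes on the higher side over all genes. Targets of the receptors PPAR alpha and delta, which set fat oxidation, were listed together with the receptor genes Ppara and Ppard. Of this list, 26 of 30 were on the lower side, with a median log2 difference of -0.33. An unadjusted p under 0.05 was found for 10 of the 30 on the lower side and 0 on the higher, where 2.29% of all genes lay lower. Of the 10, 2 held, Bdh1 and the receptor gene Ppara, both already among the leading lower genes. Among all genes at an unadjusted p under 0.05, 34.8% held. The list's median was -0.33 without both libraries and -0.29 to -0.36 with any 1 left out. Lpl, which frees fatty acids from lipoproteins, stood at 451, 940 and 368 CPM in WT and 237, 316 and 270 CPM in KO, and its difference of -1.10 ± 0.33 was -0.48 without both. Among 24 interferon response genes, 23 were on the lower side, and the median of -0.27 moved between -0.18 and -0.37 with any 1 library left out. The number on the lower side was 24 without WT library 2, 17 without KO library 1 and 17 without both. For 3 of the 24, edgeR gave an unadjusted p under 0.05, and of those Oas2, a sensor of viral RNA, held (-0.92 ± 0.25). Ifi27l2a did not: it had 173 CPM in WT library 2 and 9.97 to 41.3 CPM in the others. Fatty acid synthesis genes lay at -0.45, and at -0.24 without both, and adipocyte markers at -0.75 and 0.03.

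Lists with medians above 0 included those of vessels, fast fibres and dividing cells. All 12 tested markers of smooth muscle and pericytes lay on the higher side (median 0.40, and 0.61 without both), 3 of them at an unadjusted p under 0.05, against 2.03% of all genes. Rgs5, a pericyte gene, stood at 373, 432 and 349 CPM in WT and 486, 696 and 600 CPM in KO, and it held (0.63 ± 0.19, SE). Of 12 endothelial markers, 10 lay on the higher side (median 0.24), and Vwf, the clotting factor stored in vessel walls, and Eng, a coreceptor for TGF beta, held at 0.51 ± 0.18 and 0.44 ± 0.16. Genes of DNA replication and mitosis lay on the higher side for 16 of 18 (median 0.51, and 0.90 without both), 1 of them at an unadjusted p under 0.05, against the same 2.03%. That gene was Cdk1, the mitotic kinase, at 1.26, 1.88 and 1.19 CPM in WT and 1.78, 3.05 and 4.63 CPM in KO. Without KO library 3 the median of the list was 0.24. Cadherins and protocadherins lay on the higher side for 13 of 16 (median 0.35), with Pcdh1 at 0.63 ± 0.22 beside Dchs1. Satellite cell genes (9 of 11, median 0.16), Notch and Wnt targets (10 of 15, 0.20) and genes of the denervation response (10 of 16, 0.20) also had more members on the higher side. On the denervation list, 1 member (Myl4) lay higher at an unadjusted p under 0.05 and 2 lower, among them Dach2 (-1.80 ± 0.51). Scaled by library size alone, which moves the median of all genes to -0.23, these 3 medians were -0.06, -0.01 and -0.04. The smooth muscle and endothelial medians were then 0.19 and 0.04. The myoblast fusion gene Mymk, on the satellite cell list, stood at 0.266, 5.43 and 1.71 CPM in WT and 6.89, 8.31 and 6.84 CPM in KO, so that WT library 2 was again nearest the KO range.

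Fast fibre genes lay on the higher side for 14 of 15 (median 0.51), with an unadjusted p under 0.05 for 4 higher and 1 lower, against 2.03% and 2.29% of all genes. Several were among the most abundant genes of the tissue. Pvalb, the calcium buffer of fast fibres, stood at 14375, 14734 and 11107 CPM in WT and 17321, 20996 and 32823 CPM in KO (0.82 ± 0.30, SE). Casq1, which stores calcium, and Mylpf, a fast myosin light chain, differed by 0.66 ± 0.26 and 0.88 ± 0.38. Each had its lowest value in WT library 3 and its highest in KO library 3, and the list's median was 0.30 without WT library 3 and 0.37 without KO library 3. Slow fibre genes had a median of -0.02, which became 0.74 without WT library 3. Myh2 was the exception among fast fibre genes, at 793, 1158 and 947 CPM in WT and 559, 553 and 626 CPM in KO (-0.74 ± 0.19). The gene 9430073C21Rik on its opposite strand was also lower (-1.37 ± 0.42), and reads of the 2 may not be separated. Ckmt2, the mitochondrial creatine kinase, stood at 2542, 2354 and 2990.5 CPM in WT and 2014, 1773 and 1886 CPM in KO (-0.48 ± 0.19).

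**Figure D5:**
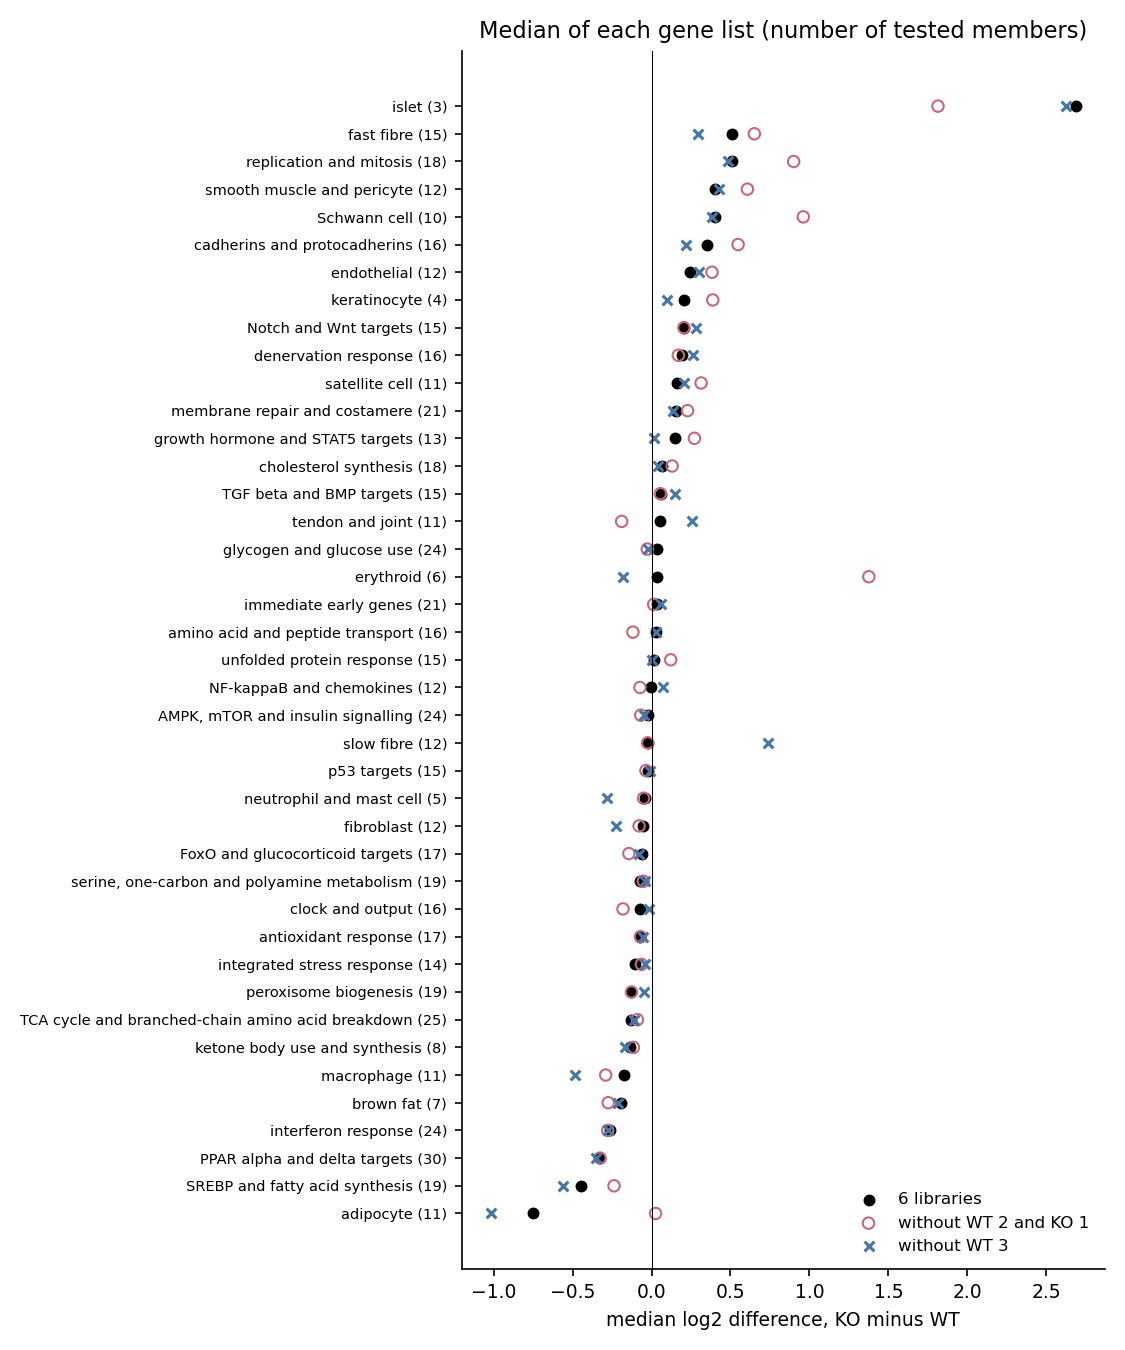
Median log2 difference (KO minus WT) of each gene list with 3 or more tested members, with all 6 libraries (filled), without WT 2 and KO 1 (open) and without WT 3 (crosses). The PPAR target list, which includes the receptor genes, and interferon genes lie below 0 under each choice shown. Adipocyte and erythroid medians move up without WT 2 and KO 1, and the slow fibre median without WT 3.

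For many other pathways the data bound the difference. All 25 tested genes of the TCA cycle and branched-chain amino acid breakdown had a 95% interval inside a 2-fold change, against 76.6% of all genes, with 19 on the lower side and a median of -0.13. The same was so for 15 of 15 p53 targets, 14 of 15 genes of the unfolded protein response, 22 of 24 of AMPK, mTOR and insulin signalling and 16 of 18 of cholesterol synthesis, whose medians lay between -0.02 and 0.07. With all 6 libraries, clock genes (median -0.07), FoxO and glucocorticoid targets (-0.06), immediate early genes (0.03) and genes of glycogen and glucose use (0.03) also lay near the median of all genes. Without WT library 2 and KO library 1 the medians were -0.18, -0.14, 0.01 and -0.03 in the same order. In that fit 14 of 16 clock genes lay on the lower side. Fewer genes were bounded in this way on the macrophage list (3 of 11) and the Schwann cell list (2 of 10). Over all genes the bounded share depended on level: 56.1% at a mean of 1 to 10 CPM, 92.15% at 10 to 100 CPM and 90.1% at 100 CPM or more. The lists were not matched for level, so their counts also reflect how abundant their members are. Without WT library 2 and KO library 1, 7322 of 13333 tested genes were bounded.

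Of 550 non-coding genes tested, the median log2 difference was -0.21, against -0.01 for all genes, and it was 0.07 without WT library 3. Gt(ROSA)26Sor, the transcript of the Rosa26 locus that is widely used for transgenes, stood at 5.65, 4.997 and 7.24 CPM in WT and 3.11, 3.60 and 3.198 CPM in KO (-0.85 ± 0.23, SE), and it held. Zfas1 and Snhg14, hosts of small nucleolar RNAs, differed by -0.48 ± 0.22 and -0.34 ± 0.16, with unadjusted edgeR p of 0.0542 and 0.0583. Gm26917, a long non-coding RNA, had the largest difference of the 198 (3.16 ± 0.99), but it had 17185 counts in KO library 3 and 883 to 1422 in the others. Without KO library 3 the difference was 0.55.

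The libraries of the pull-down gave levels of the same genes in other libraries, with 10663 of the tested genes kept. Levels there depend on what the IMP2 antibody captures as well as on transcript amount, so they do not repeat the total RNA comparison. Gene counts were 2159115 and 2547124 in the WT pull-down and 917462 and 4037480 in the KO pull-down. The KO libraries lay on the same side of the WT libraries as in total RNA for 15% of these genes and on the opposite side for 26.3%. Of the 11 leading higher genes kept, 5 lay on the same side (Cish, Dysf, Dchs1, Dlk1 and Actc1) and 0 on the opposite. Cish stood at 7.03 and 14.7 CPM in the WT pull-down and at 30.2 and 27.2 CPM in the KO pull-down. Of the 14 leading lower genes kept, 2 lay on the same side, Pex6 among them, Slc15a2 lay on the opposite, and the other 11 overlapped. These counts moved with single pull-down libraries: the 5 became 8 without WT pull-down library 2, and the 2 became 6 without that library or without KO pull-down library 1 and 4 without WT pull-down library 1. Ppara had at most 1 count per pull-down library and gave no reading.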

How the data were processed

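The files hold counts of reads per Ensembl gene and library, whole numbers as deposited by the authors. The submitters' processing notes name the tools STAR and HTSeq and the build mm10 or GRCm38, without versions, and no annotation, strand setting or read filter was given in the sources used here. Libraries came from a TruSeq kit, per the labels' protocols. The 5 lines that name no gene stayed out; genes took 49.0% to 58.8% of reads in total RNA. All 37 mitochondrially encoded genes had 0 counts and were not analysed here. Symbols and positions came from GENCODE M21 (GRCm38) for 42462 genes.

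R 4.3.3 and edgeR 4.0.16 were used: low genes were removed by filterByExpr, libraries were scaled by TMM, and genotype alone entered a two-sided quasi-likelihood test, with p adjusted by Benjamini and Hochberg over all tested genes and called at 0.05. CPM values use TMM factors. SE is the standard error of the log2 difference. DESeq2 1.42.0, limma-voom (limma 3.58.1), other scaling and filters, each library left out, and a replicate block were alternatives. A count of 0 allows up to 3 counts, or 0.203 to 0.310 CPM, covering counting error only.

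In simulated counts, 9 of 149 calls were unchanged genes with 6 libraries and 9 of 112 with 4.

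Named genes were the 15 higher and 15 lower with the smallest p among genes with a plain symbol, at least 1 CPM and groups that do not overlap; the 10 and 10 chosen likewise without WT library 2 and KO library 1; the 8 that moved most without each; the 10 most abundant at p under 0.05; up to 4 non-coding genes; genes called by an alternative; the 8 most counted specific to each of those libraries; Igf2bp2, Igf2 and Ppara; and up to 4 members of each list. The members and the 43 lists were chosen with earlier results of these data known. A few genes that the rule for named genes picks are not reported here.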

Additional observations from a re-analysis of the deposited data

How the results depend on the processing

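The count of genes that passed was 0 with all alternatives apart from DESeq2 (3) and edgeR with every gene kept (64), and without WT library 2 and KO library 1 these gave 21 and 49. Genes at an unadjusted p under 0.05 (569; 267 higher and 302 lower) numbered 898 with library size alone (52 higher, 846 lower), as that scaling moved the median of all genes to -0.23, and 1277 without the filter (581 and 696). Without WT library 2 and KO library 1 the higher genes numbered 424, and without the filter there the total was 1300. With 1 library left out the totals ranged from 312 (without KO library 3) to 874 (without WT library 2), the higher from 167 to 440 (the same libraries) and the lower from 145 (without KO library 3) to 472 (without WT library 1). Groups that do not overlap numbered 1932 with library size alone. Samples with the same number did not deviate together (correlations of 0.12, -0.14 and -0.34). The labels do not state whether such samples were paired, and correlations among so few libraries cannot settle it. With the replicate block, 0 genes passed and 370 (171 lower) had an unadjusted p under 0.05.

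Library-specific genes of WT library 2 numbered 35 at 8 times and 38 at 100 counts, and those of KO library 1 numbered 11 at 100 counts. Leading genes on the same side in the pull-down ranged from 5 to 8 (higher) and from 2 to 6 (lower) with 1 pull-down library left out, an alternative added after seeing the data. Of 91 genes followed under each alternative (those given with values and some others of the naming rule), 2 took the opposite sign, whatever the size: Kcnk3 (-4.64 to 0.23 with 1 library left out, positive without WT library 2, and 0.32 without both) and Cox6a1 (0.13 without both). Among genes not followed in this way, Nat8l (-2.56), Thrsp (-1.97), Cidec (-2.21) and Slc25a1 (-2.39) were at 0.65, 0.53, 0.28 and 0.06 without both. The causes were not tested.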
